A study of Mus musculus with 5 samples.

Results

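S100 proteins are small calcium sensors encoded by a multigene family, and 8 of their genes were described here across the cell types of the mouse dorsal root ganglion (DRG): S100a1, S100a4, S100a6, S100a10, S100a11, S100a13, S100a16 and S100b. They were taken as a fixed list, matched by symbol to the rows of the count matrix, and all 8 were found among 17267 mouse genes. Single cells came from the lumbar DRG of 5 adult C57BL/6 mice of both sexes. The mice were wild type and untreated, so there was 1 condition and no control group. The study annotated 3352 cells with 14 types, of which 12 are sensory neurons (3047 cells), 1 is satellite glia (249 cells) and 1 is endothelial cells (56 cells). All comparisons were therefore between cell types, with the 5 mice as replicates and unique molecular identifiers (UMIs), each marking 1 captured transcript, summed per type and mouse. Levels are given as CPM, the UMIs of a gene per 1000000 UMIs of that sum, with mean ± SD over 5 mice.

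S100 proteins hold a pair of EF-hand motifs, mostly work as dimers, and on binding calcium expose a surface that grips target proteins such as annexins, cytoskeletal proteins and ion channels. S100b is widely used as a glial marker, and in sensory ganglia it is also known from large neurons with myelinated axons. Within the neuron names, NF marks neurofilament-rich types, PEP peptidergic types, NP non-peptidergic types, and Th the tyrosine hydroxylase type of low-threshold mechanoreceptors.

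The libraries held 13050375 to 88886919 UMIs in 164 to 1370 cells. Median UMIs per cell were 17729 in satellite glia, 16889 in endothelial cells and 30800.5 to 105150 in the neuron types, and 9 of the 70 sums held fewer than 10 cells. Endothelial cells were the thinnest type, with 3 to 16 cells per mouse. The tissue was dissociated with enzymes and the cells were cleaned on a density gradient, so the numbers of cells per type need not mirror the ganglion. Cell barcodes shared by 2 or more libraries numbered 7. The labels were checked against marker lists. In satellite glia 6 of 7 satellite markers reached 10 CPM, the exception being Cdh19 at 8.66 CPM, and in endothelial cells 6 of 6 endothelial markers did. Summed satellite markers came to 90727 CPM in satellite glia (80350 to 104109 by mouse) and to 156 to 731 CPM in the neuron types, which is 0.181% to 0.790% of the glial level. Neuron markers summed to 591 CPM in the satellite glia (265 to 861 by mouse), against 8234 to 13036 CPM in the neuron types. Schwann cell markers summed to 1524 CPM in the satellite glia (1121 to 2084 by mouse), with 4 of 6 at 10 CPM or more, and to 70.6 to 1743 CPM in the neuron types, where Th had the highest mean. The authors defined the types from these same counts, so every test below describes how far a gene differed between types already drawn from it.

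Of the 8 genes, 7 lie on chromosome 3 and S100b lies alone on chromosome 10 (GRCm38, chr10:76253853-76261159, plus strand). On chromosome 3 the order is S100a1 (chr3:90511034-90514392, minus strand), S100a13 (chr3:90514435-90524581), S100a16 (chr3:90537254-90543151), S100a4 (chr3:90603771-90606045), S100a6 (chr3:90612882-90624181), S100a11 (chr3:93520488-93526287) and S100a10 (chr3:93555080-93564643). S100a1 and S100a13 face away from each other with 42 bases between them. The 3 stretches printed here are the start regions of S100b and S100a11, the genes with the largest rise and fall in NF neurons described below, and the gap between S100a1 and S100a13. They are RefSeq sequence of build GRCm38.p6, read 5′ to 3′ on the plus strand, and the S100b and S100a11 stretches lie upstream of the first annotated base of the gene. Capitals mark matches to CCAAT (or its reverse, ATTGG) upstream of S100b, and matches to GGGCGG and TGANTCA upstream of S100a11.
S100b, chr10:76253586-76253835: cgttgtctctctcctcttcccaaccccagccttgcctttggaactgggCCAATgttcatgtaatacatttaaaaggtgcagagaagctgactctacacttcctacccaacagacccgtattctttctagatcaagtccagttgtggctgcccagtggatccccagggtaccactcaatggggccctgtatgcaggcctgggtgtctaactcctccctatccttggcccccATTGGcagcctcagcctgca
S100a11, chr3:93520246-93520487: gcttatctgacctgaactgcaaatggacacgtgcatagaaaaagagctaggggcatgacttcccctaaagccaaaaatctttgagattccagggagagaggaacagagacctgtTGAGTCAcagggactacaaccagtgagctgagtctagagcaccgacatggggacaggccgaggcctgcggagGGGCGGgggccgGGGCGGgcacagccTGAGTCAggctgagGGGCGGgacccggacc
S100a1 and S100a13, chr3:90514393-90514434: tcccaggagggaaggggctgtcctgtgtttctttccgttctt

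Both strands of 300-base windows around gene starts were searched for 4 motifs, and 7 of the 8 genes had such a window. CCAAT was found in the windows of S100b and S100a6 and in 37.4% of all 32851 windows. GGGCGG was found for S100a11 and S100a16 and in 35.7% of all windows, and TGANTCA for the same pair and in 7.81%. TATAAA was found for S100a4 and in 13.6%. No match to any of them lay in the S100a1 or S100a13 window. These matches are descriptions of letters and were not tied to any level.

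S100b was highest in large-fibre neurons rather than in satellite glia, the only glial type annotated here. Its level was 3232 ± 298 CPM in NF_Calb1 (3029, 3495, 3217, 2860.2 and 3558 in mice 1 to 5) and 3227 ± 348 CPM in NF_Pvalb (2886, 3114, 3804, 3084 and 3244). It was 2522 ± 296 CPM in NF2_Ntrk2.Necab2 (2982, 2280.5, 2246, 2590.4 and 2513), and 2454 ± 349 CPM in PEP2_Htr3a.Sema5a (3037, 2191, 2274, 2523 and 2247). These 4 types lead the order, and no neighbours among them differed beyond their spread. Satellite glia came next with 867 ± 100 CPM (779, 849, 813, 1037 and 858), below every one of the 20 sums of the leading types. Within a mouse, PEP2_Htr3a.Sema5a was 2.82-fold above satellite glia (geometric mean; SD of the log2 ratio 0.27, n = 5), and it was higher in 5 of 5 mice.

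The remaining neuron types formed a long tail of S100b. PEP1_Dcn held 349 ± 173 CPM, PEP1_S100a11.Tagln2 125 ± 44.8 CPM, PEP3_Trpm8 102 ± 123 CPM and PEP1_Slc7a3.Sstr2 48.1 CPM. In the 3 NP types and Th, S100b lay between 27.2 and 39.9 CPM. Satellite markers stood at 0.181% to 0.492% of their glial level in the 4 leading types, and the same share of the glial S100b level would be 1.56 to 4.23 CPM there. The measured levels were 579.6 to 2073 times that. In the NP types and Th the measured level was 9.49 to 15.2 times that share. These multiples cover RNA from satellite glia only, and free S100b RNA from the 4 leading neuron types was not estimated. The mean in PEP3_Trpm8 rested on mouse 5, which had 316 CPM against 21.0 to 92.8 CPM in the other mice, and without it the mean was 47.9 CPM.

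**Figure D1:**
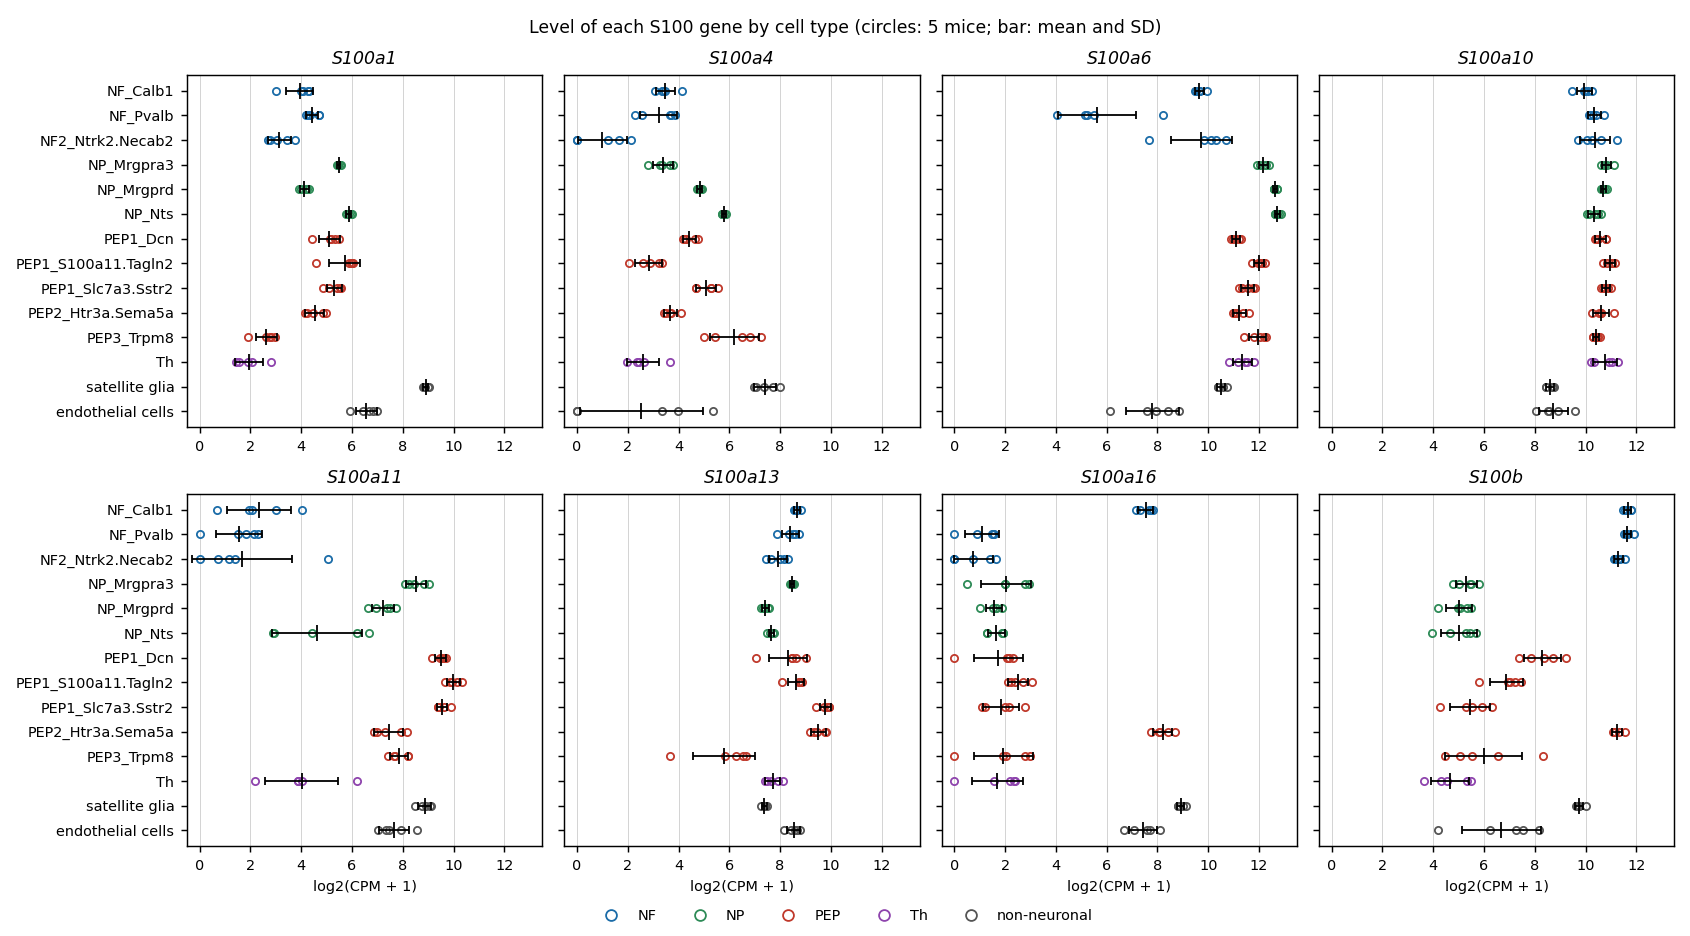
Level of each of the 8 S100 genes (horizontal axis, log2(CPM + 1), 1 panel per gene) in the 14 cell types (vertical axis), with a circle for each of 5 mice and a black bar for their mean and SD. S100b is highest in the 3 NF types and PEP2_Htr3a.Sema5a, S100a6 in the 3 NP types, S100a11 in the 3 PEP1 types, and S100a1, S100a4 and S100a16 in satellite glia.

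S100a16, a broadly expressed family member, shared its high types with S100b only in part. It was highest in satellite glia, with 444, 442, 469, 509 and 552 CPM in mice 1 to 5 (mean 483 ± 46.8). PEP2_Htr3a.Sema5a followed with 212, 269.7, 407, 344 and 272 CPM (mean 301 ± 75.6) and NF_Calb1 with 214, 140.3, 225, 201 and 157 CPM (mean 187 ± 37.0). The glial sums lay above all sums of both neuron types, which overlapped each other. Endothelial cells held 183 ± 67.6 CPM. In the other 10 neuron types the mean was only 0.875 to 4.82 CPM, including NF_Pvalb and NF2_Ntrk2.Necab2, which are among the leading S100b types. These 10 levels were 0.993 to 2.63 times what the share of satellite markers would carry, whereas PEP2_Htr3a.Sema5a was at 129 times and NF_Calb1 at 119 times that level.

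S100a6, known as calcyclin, was high where S100b was low among neurons, with a Spearman correlation of -0.80 across the 12 neuron types. NP_Nts (6764 ± 493 CPM) and NP_Mrgprd (6342 ± 272 CPM) led, with NP_Nts higher in 5 of 5 mice by a log2 ratio of 0.09 ± 0.09 (SD), an order that turned with TMM-scaled CPM (6818 against 7337 CPM). NP_Mrgpra3 held 4657 ± 594 CPM, PEP1_S100a11.Tagln2 4154 ± 543 CPM and PEP3_Trpm8 4026 ± 911 CPM. From there the level ran down through PEP1_Slc7a3.Sstr2, Th, PEP2_Htr3a.Sema5a and PEP1_Dcn (3032 to 2192 CPM) to satellite glia (1463 ± 164 CPM). The NF types were at the bottom of the neurons. NF2_Ntrk2.Necab2 held 201, 1262, 1652, 916 and 1113 CPM, NF_Calb1 802, 730.2, 992, 810.0 and 713 CPM and NF_Pvalb 15.3, 36.6, 34.4, 293 and 44.2 CPM in mice 1 to 5. In NF_Pvalb, mouse 4 stood apart, and 91.5% of its 471 S100a6 UMIs came from 3 of 24 cells. Without it the mean in NF_Pvalb was 32.6 CPM in place of 84.8 CPM.

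S100a11, also called calgizzarin, was highest in the PEP1 types, and since it is part of the name of one of them its levels there are a description. PEP1_S100a11.Tagln2 held 1283, 934, 969, 1132 and 819 CPM in mice 1 to 5, PEP1_Slc7a3.Sstr2 945, 681, 674, 784 and 677 CPM and PEP1_Dcn 787, 738, 821, 560.4 and 707 CPM. Satellite glia (469.8 ± 81.1 CPM) and NP_Mrgpra3 (378 ± 106 CPM) followed and did not differ beyond their spread. The NP types were far apart, since NP_Mrgprd held 155 ± 44.4 CPM and NP_Nts 41.4 ± 43.0 CPM (6.49 to 101 CPM by mouse), a log2 ratio of 2.61 ± 1.45 (SD) with NP_Mrgprd higher in 5 of 5 mice. In the NF types S100a11 was low, at 7.2, 5.80 and 2.34 CPM in NF2_Ntrk2.Necab2, NF_Calb1 and NF_Pvalb. In NF2_Ntrk2.Necab2 the mean was 0.885 CPM without mouse 2, where 1 cell gave 83.3% of 30 UMIs, and in Th it was 11.4 CPM in place of 23.6 CPM without mouse 2. A pseudogene, S100a11-ps (GRCm38, chr12:73961142-73961447), has no row of its own in the matrix, so reads shared with it cannot be told apart from those of S100a11.

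S100a10, the light chain partner of annexin A2 that brings several ion channels to the cell surface, was the most even of the 8 among neurons. Its type means ran from 998 ± 191 CPM in NF_Calb1 to 2009 ± 263 CPM in PEP1_S100a11.Tagln2. Only 2 of its 11 steps within the neurons were beyond the spread between mice, NP_Nts over NF_Calb1 (0.39 ± 0.25, log2 ± SD) and PEP1_Slc7a3.Sstr2 over NP_Mrgprd (0.10 ± 0.09). Both non-neuronal types lay below every neuron type, at 377, 370.5, 487, 263 and 776 CPM in endothelial cells and 343, 435, 344, 406 and 419 CPM in satellite glia. They did not differ from each other beyond their spread.

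S100a13, which takes part in the release of fibroblast growth factor 1, was highest in PEP1_Slc7a3.Sstr2 (979, 922, 689, 978 and 858 CPM) and PEP2_Htr3a.Sema5a (898, 698, 573, 876 and 649 CPM). The step between them was small but had the same sign in 5 of 5 mice (0.27 ± 0.13, log2 ± SD). The step from PEP2_Htr3a.Sema5a down to NF_Calb1 (405 ± 31.2 CPM) was 0.85 ± 0.35. Below these, 8 neuron types ran from 403 to 170.1 CPM, and PEP3_Trpm8 was lowest with 75.1, 11.7, 92.8, 55.3 and 101 CPM. PEP3_Trpm8 was below satellite glia (166 ± 9.87 CPM) in 5 of 5 mice, so the peptidergic types held both ends of the S100a13 order.

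S100a1, a regulator of calcium handling best known from muscle, was highest in satellite glia, while its start lies 42 bases from that of S100a13. Satellite glia held 504, 456, 467, 516 and 439 CPM in mice 1 to 5 (mean 477 ± 32.7) and endothelial cells 85.8, 112, 59.1, 124 and 102 CPM. Among neurons NP_Nts was highest with 52.6, 61.7, 57.4, 55.3 and 62.4 CPM, and Th lowest with 1.93, 3.12, 1.68, 6.07 and 2.78 CPM. Every neuron sum lay below every glial sum. The neuron levels were 2.00 to 37.5 times the level that the share of satellite markers would carry, the lowest multiple being that of Th. Across the 12 neuron types S100a1 and S100a13 had a Pearson correlation of 0.53 and a Spearman correlation of 0.38 (log2 scale, n = 12 types from the same 5 libraries).

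S100a4, a binding partner of non-muscle myosin, was also highest in satellite glia, with 164, 255, 126, 131 and 208 CPM in mice 1 to 5. PEP3_Trpm8 was the leading neuron type with 42.1, 30.8, 149.9, 113 and 90.2 CPM, and it did not differ from the glia beyond its spread, the log2 ratio of glia over PEP3_Trpm8 being 1.22 ± 1.31 (SD). NP_Nts followed with 51.2, 56.5, 50.7, 57.3 and 52.9 CPM, a narrow range. S100a4 was lowest in NF2_Ntrk2.Necab2 (1.37 ± 1.44 CPM, 12 UMIs in all). By the means, PEP3_Trpm8 was the highest neuron type for S100a4 and the lowest for S100a13.

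Over the 8 genes, 27 of 104 steps between neighbouring types were beyond the spread between mice, where a step counted if the mean log2 ratio of (CPM + 1) was larger than its SD and had the same sign in every mouse. The number of steps beyond the spread was 2 for S100a4 and S100a16, 3 for S100a10 and S100b, 4 for S100a1, S100a6 and S100a13 and 5 for S100a11. Most positions in these orders are therefore groups of types, not ranks.

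The first comparison asked which S100 genes separate neurons from satellite glia, using 1 sum of all neurons and 1 sum of all satellite glia per mouse. S100a6 and S100a10 were higher in neurons, S100a1, S100a16, S100a4 and S100a11 were higher in glia, and S100b and S100a13 were not called. A gene was called when edgeR's quasi-likelihood test gave a Benjamini-Hochberg adjusted p under 0.01 and the difference was at least 2-fold. Of 12109 genes tested, 32.6% were called higher in neurons and 21.6% in glia, beside 2 and 4 of the 8 S100 genes. Their median log2 fold change (neurons over glia) was -0.84, against 0.35 over all genes tested.

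S100a1 had 21.4, 24.8, 21.7, 27.8 and 26.3 CPM in the neurons of mice 1 to 5 and 504, 456, 467, 516 and 439 CPM in their glia, with no overlap. Its log2 fold change was -4.44 ± 0.13 (SE; edgeR adjusted p = 4.1e-15), the largest of the 8. S100a16 had 45.6, 37.9, 82.0, 31.4 and 26.5 CPM in neurons and 444, 442, 469, 509 and 552 CPM in glia. The groups did not overlap, and the log2 fold change was -3.61 ± 0.24 (SE; edgeR adjusted p = 1.7e-10). S100a4 differed by -2.99 ± 0.18 (SE; edgeR adjusted p = 7.6e-11), from 24.3 ± 4.20 CPM in neurons to 177 ± 54.5 CPM in glia. S100a11 differed less, by -1.21 ± 0.15 (SE; edgeR adjusted p = 9.5e-07), although its PEP1 types were above the glia. The neuron sum weights types by their UMIs, and NP_Mrgprd (155 CPM of S100a11) gave the most, 92245664 over all mice. Equal weight of types was not run for this comparison. In the opposite direction, S100a10 had 1835, 1660.3, 1584, 1479 and 1411 CPM in neurons and 343, 435, 344, 406 and 419 CPM in glia, a log2 fold change of 1.87 ± 0.11 (SE; edgeR adjusted p = 4.6e-11). S100a6 had 4454, 4406, 3669.9, 4586 and 4625 CPM against 1329, 1709, 1336, 1390.3 and 1551 CPM, 1.42 ± 0.11 (SE; edgeR adjusted p = 3.5e-09). Neither gene's groups overlapped.

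S100b, though used as a glial marker, was not called between the pooled neurons and the glia. The neurons of mice 1 to 5 had 837, 655, 995, 481 and 569 CPM and the glia 779, 849, 813, 1037 and 858 CPM. The groups overlapped, and the neurons were higher in 2 of 5 mice. The log2 fold change was -0.47 ± 0.16 (SE; edgeR adjusted p = 0.0134). The pooled neurons mix types from 27.2 to 3232 CPM, and the NF and PEP2 types made up 26.8%, 18.9%, 25.4%, 14.7% and 17.1% of the neurons of mice 1 to 5. The sum weights each type by its UMIs, so the size and sign of this fold change hold for that mix only. S100a13 was higher in the neurons of every mouse (323 ± 31.4 against 166 ± 9.87 CPM), but its log2 fold change of 0.80 ± 0.11 was under 2-fold. In all, 7 of the 8 genes had groups that did not overlap, as had 65.9% of all genes tested.

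**Figure D2:**
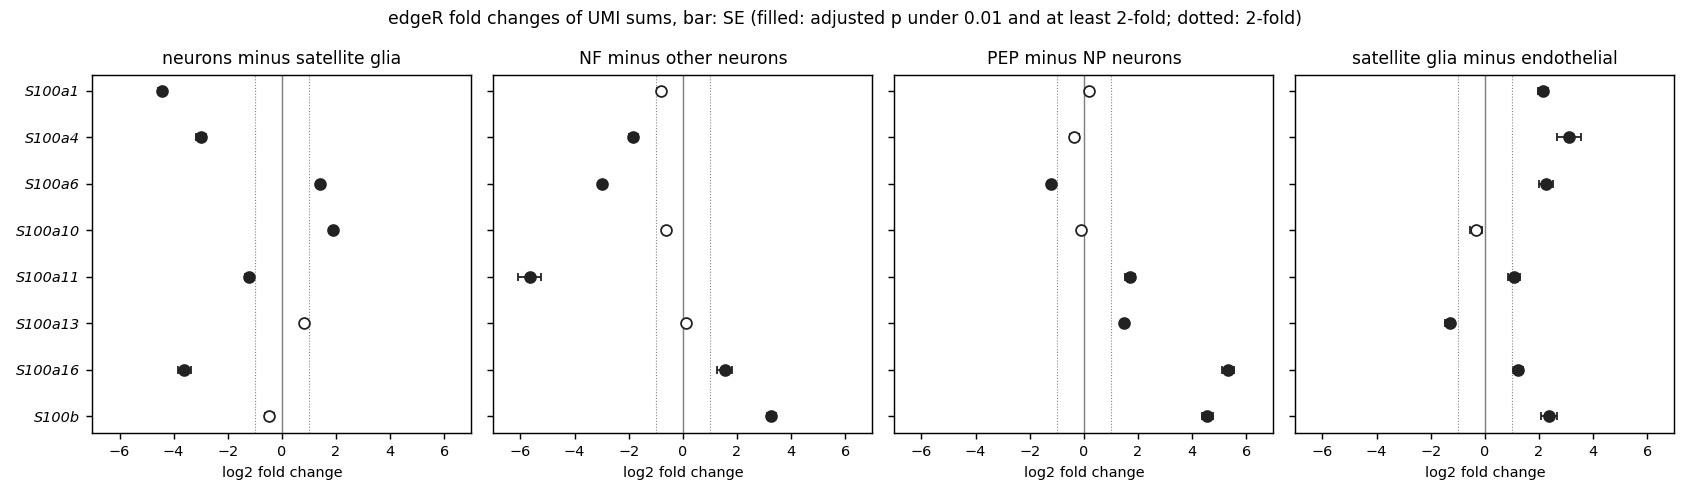
Log2 fold change from edgeR (horizontal axis, bar for the SE) of each S100 gene (vertical axis) in the 4 comparisons, 1 panel each, with filled points for genes called at an adjusted p under 0.01 and at least 2-fold and dotted lines at 2-fold. S100b and S100a16 lie on the positive side in NF neurons over other neurons (3.27 and 1.55) and in PEP over NP neurons (4.56 and 5.31), where S100a6 lies on the negative side (-2.97 and -1.22).

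Set against the sum of the other 9 neuron types, the sum of the 3 NF types, which carry touch and body position signals, had more S100b and S100a16 and less S100a6, S100a11 and S100a4, although S100a16 was high in NF_Calb1 alone of the 3. Of 12309 genes tested, 15.8% were called higher in NF neurons and 14.5% higher in the others, beside 2 and 3 of the 8 S100 genes, and the medians were -0.72 for the 8 genes and -0.02 for all. S100b had 2989, 3189.8, 3235, 2849.9 and 3222 CPM in the NF neurons of mice 1 to 5 and 383, 309.6, 390.1, 226 and 212 CPM in the other neurons. There was no overlap, and the log2 fold change was 3.27 ± 0.16 (SE; edgeR adjusted p = 2.5e-10). S100a6 moved by nearly as much the other way, with 539, 688, 864, 672 and 595 CPM in NF neurons and 5281, 4912, 4428, 5005 and 5167 CPM in the others (-2.97 ± 0.13 SE; edgeR adjusted p = 1.0e-10).

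S100a11 was much lower in NF neurons, with 1.82, 16.2, 5.58, 1.04 and 2.76 CPM against 340.3, 299, 268, 224 and 192 CPM. The log2 fold change was -5.66 ± 0.42 (SE; edgeR adjusted p = 1.7e-08) and became -6.49 without mouse 2, which was the highest of the 5 mice in each NF type (15.3 CPM in NF_Calb1, 3.95 CPM in NF_Pvalb and 32.5 CPM in NF2_Ntrk2.Necab2). S100a4 was at 8.13 ± 1.72 CPM in NF neurons and 27.0 ± 4.07 CPM in the others (-1.83 ± 0.16 SE; edgeR adjusted p = 8.3e-08). S100a16 had 136, 85.8, 154, 71.7 and 72.9 CPM in NF neurons against 26.4, 31.4, 62.4, 27.0 and 20.3 CPM, 1.55 ± 0.27 (SE; edgeR adjusted p = 1.4e-04), and with every type weighted equally in limma this was 0.80 and under 2-fold. Of the 3 NF types, NF_Calb1 held 187 CPM and the others 1.30 and 0.875 CPM, and of the other 9 types PEP2_Htr3a.Sema5a alone was above 5 CPM. S100a1, S100a10 and S100a13 were not called, at -0.82 ± 0.13, -0.63 ± 0.11 and 0.11 ± 0.10 (SE), and for S100a13 the sign turned to -0.17 with equal weights, while S100a1 was then called (-1.02). Groups did not overlap for 7 of the 8 genes, nor for 56.9% of all genes tested.

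Between the 5 PEP types and the 3 NP types, both classed as pain and temperature or itch neurons, 4 S100 genes were higher in PEP and 1 in NP. Of 12319 genes tested, 15.9% were called higher in PEP and 7.78% in NP, and the median log2 fold change was 0.82 for the 8 genes and 0.02 for all. S100a16 had 79.4, 88.4, 162, 94.3 and 79.2 CPM in the PEP neurons of mice 1 to 5 and 1.5, 1.89, 3.11, 2.15 and 2.28 CPM in the NP neurons (5.31 ± 0.22 SE; edgeR adjusted p = 2.9e-11). S100b had 1152, 856, 971, 759 and 778 CPM and 18.3, 32.9, 46.4, 29.8 and 39.5 CPM (4.56 ± 0.21 SE; edgeR adjusted p = 8.5e-11). The PEP sums include the PEP2_Htr3a.Sema5a cells, and in the other 4 PEP types S100a16 averaged 2.77 to 4.82 CPM and S100b 48.1 to 349 CPM.

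S100a11 and S100a13 were also higher in PEP neurons, and S100a6 was lower. S100a11 had 667, 589, 461, 565 and 514 CPM in PEP and 215, 169, 184, 107 and 97.9 CPM in NP neurons (1.70 ± 0.19 SE; edgeR adjusted p = 1.1e-06). S100a13 had 693, 601, 454, 645 and 585 CPM and 205, 197, 181, 191 and 181 CPM (1.47 ± 0.11 SE; edgeR adjusted p = 2.0e-08). Neither difference held for every type. For S100a13, PEP3_Trpm8 was lowest, and NP_Mrgpra3 (352 CPM) did not differ beyond its spread from PEP1_Dcn (349 CPM). For S100a11, NP_Mrgpra3 (378 CPM) had a higher mean than PEP3_Trpm8 (233 CPM) and PEP2_Htr3a.Sema5a (185 CPM). The NP sums drew on 900 NP_Mrgprd, 400 NP_Nts and 104 NP_Mrgpra3 cells. S100a6 was lower in PEP, at 3494, 2977, 2554, 3184 and 2993 CPM against 6576, 6574, 6144, 6037 and 6030.5 CPM (-1.22 ± 0.10 SE; edgeR adjusted p = 5.2e-08). Groups did not overlap for these 5 of the 8 genes, nor for 49.2% of all genes tested. S100a10, S100a1 and S100a4 overlapped and were not called (-0.10 ± 0.11, 0.17 ± 0.13 and -0.36 ± 0.16 SE).

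Satellite glia and endothelial cells, the non-neuronal types, differed in most S100 genes. Of 4046 genes that passed the filter on low counts, 22.3% were called higher in glia and 21.5% in endothelial cells, beside 6 and 1 of the 8 S100 genes, with medians of 1.69 and 0.05. S100a1 (2.14 ± 0.19 SE; edgeR adjusted p = 3.4e-08), S100a6 (2.26 ± 0.26 SE; 7.6e-07), S100b (2.37 ± 0.29 SE; 1.5e-06), S100a4 (3.12 ± 0.44 SE; 8.0e-06) and S100a16 (1.24 ± 0.19 SE; 1.8e-05) were higher in the glia of 5 of 5 mice without overlap. S100a4 was listed at 0 in the endothelial cells of mice 1 and 4, which numbered 3 and 14. Over all endothelial sums together 3 UMIs would be 3.19 CPM, but the floor of a single mouse is higher. The smallest of all sums, the endothelial cells of mouse 1, held 58279 UMIs, so a 0 there does not exclude a low level. The log2 fold change of S100a4 was 4.14 without mouse 2. S100a11 was higher in glia by 1.08 ± 0.22 (SE; edgeR adjusted p = 4.0e-04), but its groups overlapped and without mouse 4 the value was 0.89, under 2-fold. Only S100a13 went the other way, with 166, 176, 149.8, 167 and 170.4 CPM in glia and 343, 281, 409.8, 442 and 388 CPM in endothelial cells (-1.31 ± 0.15 SE; edgeR adjusted p = 7.9e-07). S100a10 was not called (-0.33 ± 0.21 SE; edgeR adjusted p = 0.175). In all, 6 of the 8 genes had groups that did not overlap, as had 50.5% of all genes tested. Satellite markers summed to 1527 to 15254 CPM in the endothelial sums and neuron markers to 309 to 1072 CPM. The part of glial or neuronal RNA in these values was not tested.

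How a level is spread over cells was read from the share of cells with at least 1 UMI after each cell was thinned to 10000 UMIs, with exact Clopper-Pearson intervals that cover counting error only. As a yardstick for free RNA, Apoe, a satellite glia transcript, had a UMI in 22.4% to 49.7% of the thinned cells of the neuron types, and Nefh, a neuronal one, in 49.8% of satellite glia. In satellite glia the S100 genes held 0.209 (S100a13) to 1.86 (S100a6) UMIs per 100 Apoe UMIs. Apoe follows RNA of satellite glia only, where it had far more UMIs than any S100 gene, and not RNA of other neurons. Setting a share beside that of Apoe therefore does not decide between expression and free RNA. The source of the UMIs was not tested. S100b was found in 100% of cells in each NF type, in PEP2_Htr3a.Sema5a and in satellite glia. In the NP types and Th its share was 27.2% to 33.7% (unthinned 74.1% to 91.7%), within the range of Apoe, and these shares alone do not tell expression from free RNA. The levels there were the 9.49 to 15.2 times given above, which cover satellite glia RNA only. Free S100b RNA from the NF types and PEP2_Htr3a.Sema5a was not estimated. S100a10 was found in 92.4% to 100% of cells of every type.

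S100a16 UMIs were found in a part of the cells of its 2 high neuron types. It had a UMI in 52.9% (95% interval 45.9 to 59.9) of PEP2_Htr3a.Sema5a cells and in 25.0% (95% interval 18.9 to 32.0) of NF_Calb1 cells (unthinned 67.0% and 40.6%), against 97.2% (95% interval 94.3 to 98.9) of satellite glia. Apoe stood at 47.6% and 35.6% in the same neuron types, so the share in PEP2_Htr3a.Sema5a exceeded Apoe by less than its interval and that in NF_Calb1 was below it, while the levels were the 129 and 119 times given above. The thinned count per cell in PEP2_Htr3a.Sema5a had a 10th percentile of 0, a median of 1 and a 90th percentile of 9 UMIs.

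The S100a6 shares of the NF types lay apart. Its thinned share was 65.0% (95% interval 57.6 to 71.9) in NF_Calb1, 34.5% (95% interval 25.8 to 44.0) in NF_Pvalb and 91.4% (95% interval 81.0 to 97.1) in NF2_Ntrk2.Necab2, and 100% in each NP type. Apoe was at 35.4% in the NF_Pvalb cells, and the S100a6 share there does not by itself tell expression from free RNA. Free S100a6 RNA from other neuron types was not estimated. In NF_Calb1 the thinned S100a6 count per cell had a median of 1 and a 90th percentile of 23 UMIs, so a part of the cells carried most of the level. S100a11 was found in 96.3% to 98.3% of cells of the PEP1 types and in 1.72% to 5.00% of the NF types. Within the NP class the share was 84.6% in NP_Mrgpra3, 51.9% in NP_Mrgprd and 9.0% in NP_Nts, the same order as the CPM. The shares in NP_Nts and the NF types were below Apoe. The S100a11 levels there were 28.1 times (NP_Nts) and 2.88 to 8.33 times (NF types) what the share of satellite markers would carry. That share covers satellite glia RNA only. S100a11 was highest in the PEP1 neurons, whose free RNA was not estimated. S100a13 ranged from 36.9% (95% interval 29.6 to 44.7) in PEP3_Trpm8 to 99.4% in PEP1_Slc7a3.Sstr2. The first of them was below Apoe in the same cells (47.6%), while the S100a13 level there was 124 times what the share of satellite markers would carry. Free S100a13 RNA from other neuron types was not estimated. S100a1 and S100a4 were found in 96.4% and 68.3% of satellite glia. In the neurons their shares ran up to 43.0% and 43.8%, both in NP_Nts and both within the range of Apoe, and these shares alone decide nothing. Their levels in NP_Nts were 37.5 and 84.2 times what the share of satellite markers would carry, and above it in 5 of 5 mice. S100a4 had no UMI in 58 NF2_Ntrk2.Necab2 cells after thinning, which at that depth allows a share of up to 6.16%, while 17.2% of the same cells had one before thinning.

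**Figure D3:**
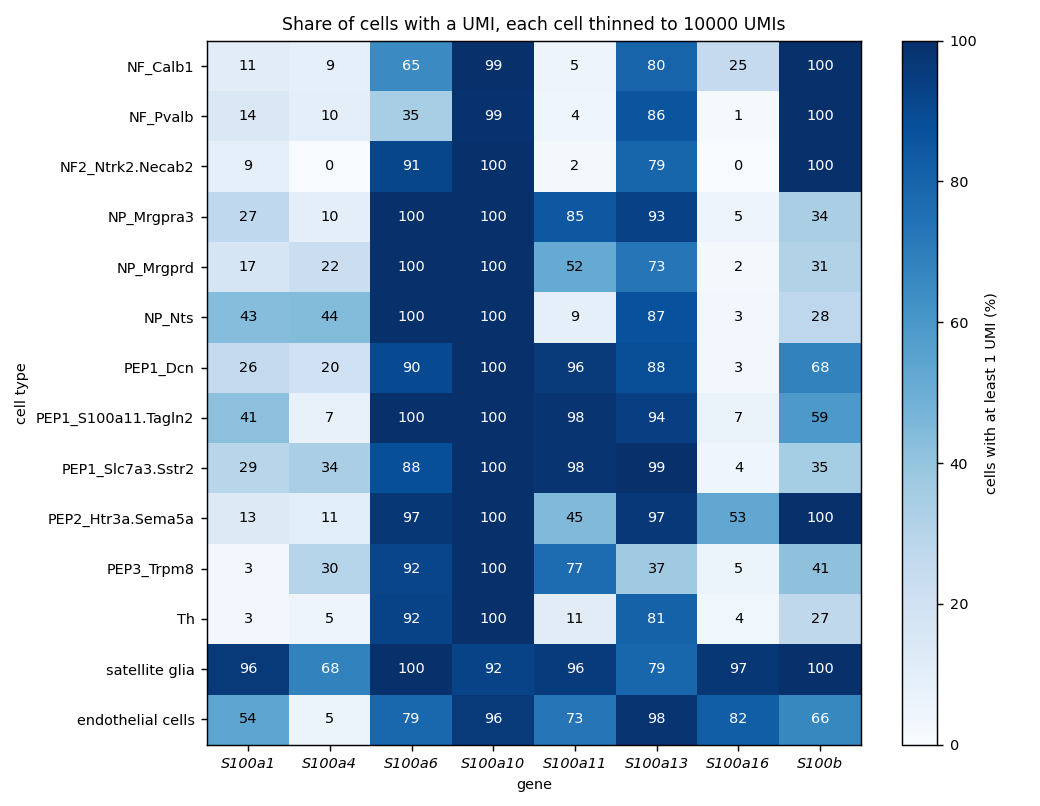
Heat map of the share of cells with at least 1 UMI (colour and printed number, percent) of each S100 gene (columns) in the 14 cell types (rows), after every cell was thinned to 10000 UMIs. S100b is at 100% in the NF types, PEP2_Htr3a.Sema5a and satellite glia, while S100a16 is at 97.2% in satellite glia, 52.9% in PEP2_Htr3a.Sema5a and 25.0% in NF_Calb1.

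A satellite glia cell carried more of the 8 genes at once than other cells. At 10000 UMIs its mean was 7.26 ± 0.18 genes with a UMI, against 5.51 ± 0.43 in endothelial cells. Among neurons the mean ran from 3.21 ± 0.19 in Th to 5.19 ± 0.14 in PEP2_Htr3a.Sema5a. These means count free RNA as well, at the same depth in every cell.

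Within the neurons 3 of the S100 genes varied closely with fibre type genes. Across the 12 neuron types, on mean log2(CPM + 1), S100b had a Pearson correlation of 0.95 (Spearman 0.90) with Nefh, the heavy neurofilament of large fibres, and of -0.89 (Spearman -0.90) with Prph, the peripherin of small fibres. S100a6 had 0.91 (0.81) with Prph and -0.77 (-0.86) with Nefh. S100a11 had 0.93 (0.97) with Calca, which encodes the neuropeptide CGRP. S100b and S100a6 were at -0.74 (-0.80) with each other, S100a10 and S100a11 at 0.72 (0.72), and S100a16 and S100b at 0.49 (0.17). All points share the same 5 libraries and the type definitions, so these are descriptions with no test.

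**Figure D4:**
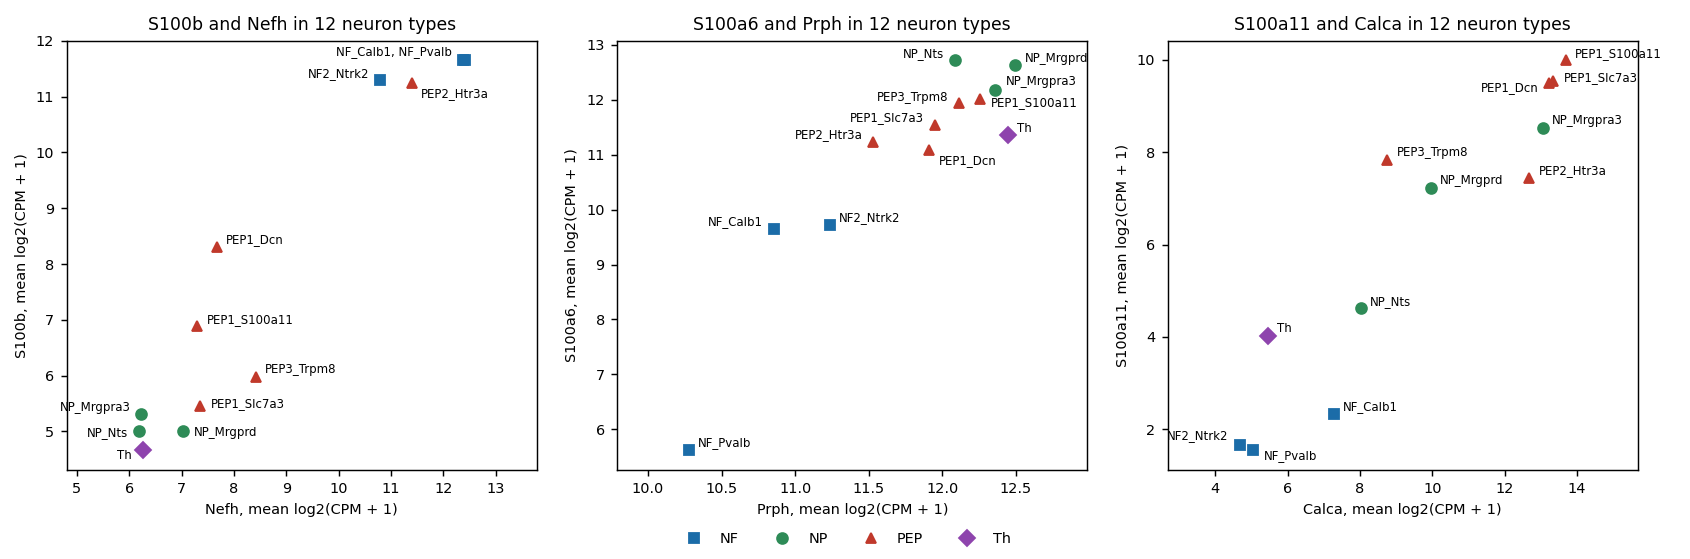
Mean log2(CPM + 1) over 5 mice in the 12 neuron types, 1 point per type, for S100b against Nefh, S100a6 against Prph and S100a11 against Calca, with the gene of the S100 family on the vertical axis. S100b rises with Nefh from Th to NF_Calb1 and NF_Pvalb, S100a6 rises with Prph from NF_Pvalb to the NP types, and S100a11 rises with Calca to the PEP1 types.

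Of the 7 fibre type genes (Nefh, Nefm, Nefl, Prph, Scn10a, Calca and Tac1), 7 were called higher in neurons than in glia, 3 higher and 4 lower in NF neurons, and 3 higher in PEP than in NP neurons, beside the shares of all genes given above for each comparison, with medians of 4.0, -1.55 and 0.82. Nefh was at 4742 CPM in NF and 403 CPM in other neurons (log2 fold change 3.47 ± 0.18, SE), close in size to S100b. Prph (-1.55 ± 0.10) and Calca (-5.05 ± 0.33) differed in the directions of S100a6 and S100a11.

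The partners of S100a10 did not share its even level. Anxa2, the annexin it binds, ran from 473 ± 169 CPM in PEP3_Trpm8 to 2153 ± 285 CPM in NP_Mrgpra3, and was lower in PEP than in NP neurons (-1.04 ± 0.11 SE; edgeR adjusted p = 5.7e-07), where S100a10 was not called. In neurons over glia Anxa2 had a log2 fold change of 0.73 ± 0.11 and was not called, against 1.87 ± 0.11 for S100a10. Ahnak, a large scaffold protein of the same complex, was higher in glia (-1.35 ± 0.17) and lower in NF neurons (-3.03 ± 0.22). Of the channels S100a10 is known to bind, Scn10a was higher in neurons than in glia (5.42 ± 0.25) and lower in NF neurons (-2.26 ± 0.37). Asic1 was higher in NF than in other neurons (2.80 ± 0.14), and Kcnk3 was not called there. Both were higher in PEP than in NP neurons (6.43 ± 0.21 and 7.40 ± 0.28), where the NP means were only 0.225 and 0.390 CPM.

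Among the 10 annexins present of 12 listed, 6 were tested between neurons and glia, where 3 were higher in neurons, 1 higher in glia and 2 not called, and in NF neurons 1 was higher, 2 were lower and 3 not called. Between PEP and NP neurons 1 was higher, 2 were lower and 3 not called. The median log2 fold changes of the annexins in these comparisons were 1.16, -0.75 and -0.79, against 0.35, -0.02 and 0.02 over all genes. The shares of all genes called in each direction were 32.6% and 21.6%, 15.8% and 14.5%, and 15.9% and 7.78%, and they apply to the partners and receptors as well. Anxa4 was higher in glia than in neurons (-1.70 ± 0.19), in NF neurons (1.41 ± 0.16) and in PEP over NP neurons (3.71 ± 0.19), the directions of S100a16. Anxa5 (1.82 ± 0.12 in neurons over glia, -2.04 ± 0.11 in NF over other neurons) had the directions of S100a6 in both. Anxa1, an annexin that S100a11 is known to bind, was at 0 to 1.39 CPM in the neuron types, 6.03 CPM in satellite glia and 69.0 CPM in endothelial cells. Its highest neuron mean, in PEP1_S100a11.Tagln2, rested on 15 UMIs that all came from mouse 2, and NF_Calb1 was at 1.33 CPM. Between glia and endothelial cells 1 of 5 annexins tested was higher in glia (Anxa6, 1.06 ± 0.29), 1 higher in endothelial cells (Anxa3, -6.38 ± 0.37) and 3 were not called.

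Of the 15 listed partners and receptors, 11 were tested between neurons and glia (6 higher in neurons, 3 higher in glia), 12 between NF and other neurons (2 higher, a share near that of all genes, and 3 lower) and 14 between PEP and NP neurons (4 higher, 3 lower), with medians of 1.63, -0.29 and -0.18. Between glia and endothelial cells 1 of 4 was called, Myh9, the non-muscle myosin bound by S100a4, which was higher in endothelial cells (-3.65 ± 0.33). Fgf1, the growth factor released with S100a13, was higher in neurons than in glia (3.72 ± 0.19), in NF neurons (2.32 ± 0.12) and in PEP over NP neurons (1.89 ± 0.12), and S100a13 was called in the last of these alone. Tlr4, another receptor for S100 proteins, was called higher in PEP neurons at low levels (2.74 against 0.0102 CPM). Cacybp, a binding protein of S100a6, was called in none of the 4 comparisons. Ager, the receptor for S100b outside the cell, did not exceed 2.75 CPM in any type. Of the 10 other S100 genes listed, 9 had a row, and none reached 10 CPM in any type, the highest being S100a3 with 9.93 CPM in PEP1_Dcn. Of these, S100g was called higher in neurons than in glia (2.62 against 0.139 CPM) and S100a3 lower (-2.34 ± 0.46), and S100a3 was higher and S100g lower in PEP than in NP neurons (2.18 ± 0.36 and -2.55 ± 0.36).

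To place each S100 gene, the genes with the most similar order of levels were taken by the Pearson correlation of mean log2(CPM + 1). Over the 12 neuron types, with 8023 genes compared, the nearest to S100b were Atp2a2 (0.98), Rasl10b (0.98) and Ndrg4 (0.96). The nearest to S100a6 were Rnf144a (0.97), Abhd14b (0.97) and Btf3l4 (0.96), and the nearest to S100a11 were Cnih2 (0.96), Glipr2 (0.94) and Them4 (0.94). S100a16 was nearest to Col11a1 (0.93), Cryab (0.90) and Smr2 (0.89). Over all 14 types, with 9208 genes compared, S100a10 was nearest to Syngr3 (0.97), S100a1 to Pard3b (0.90) and S100a4 to Fam172a (0.84). Each is among the highest of all genes compared, over points that share their libraries, and has no test.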

How the data were processed

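Single cells of mouse lumbar DRG were measured with a droplet 3′ assay in 5 libraries, each taken as 1 mouse; mouse numbers follow the order of the library identifiers and are names only. The authors counted UMIs with Cell Ranger on mm10 with the UCSC gene model, kept cells within limits on gene number and mitochondrial share, and clustered and named them with Seurat. The deposited matrix holds their raw UMI counts without normalization, and the deposited annotation was used unchanged. The type spelled NF_Ca1b1 there was read as NF_Calb1. Of 17271 rows, 4 without a mouse gene name were left out (6.37e-05% of UMIs). The number of cells loaded was limited to keep doublets few, and no doublet caller was run here.

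UMIs were summed per type and mouse, since cells are not replicates, and CPM were computed from these sums. Where a 3′ assay counts 1 tag per transcript, levels of different genes are not compared. Groups of types were compared in edgeR 4.0.16 (R 4.3.3, filterByExpr, TMM, quasi-likelihood test, Benjamini-Hochberg adjustment over all genes tested), called at an adjusted p under 0.01 and 2-fold. The fits had no term for the mouse. Both sums of a comparison come from the same animal, which pairs them, and after removal of the group means the correlation across genes within a mouse was 0.117 to 0.337 for NF against other neurons, 0.124 to 0.365 for PEP against NP, 0.00890 to 0.148 for neurons against glia and 0.0201 to 0.197 for glia against endothelial cells. The scripts were tested on simulated data. Of simulated 2-fold changes, 28% were called for neurons against glia and 54% for NF against other neurons. The figures were 52% for PEP against NP and 42% for glia against endothelial cells. All simulated 4-fold changes were called, and 2-fold is itself the call threshold.

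Alternatives were the replicate block, DESeq2 1.42.0, no filter on low counts, an adjusted p under 0.05, no minimum fold, sums of at least 10 cells, equal weight of types with limma 3.58.1, other scalings of CPM, thinning to 5000 UMIs, and leaving out each mouse. Equal weight of types was run for NF against other neurons only. Genes were named by fixed lists (the 8 S100 genes, other S100 genes, annexins, partners and receptors, fibre type genes), of which known partners of a member, the fibre type genes and the 3 called genes of each list with the largest fold change are named. The gene nearest to S100a13 is not reported here. The 8 genes and all lists were chosen with earlier results of these data known. The labels give no batch, so animal and batch cannot be told apart. The paper used male and female mice, and no library could be assigned a sex, so animal and sex cannot be told apart either. Sequences and motif windows are from RefSeq on GRCm38.p6 and positions from GENCODE on GRCm38, the build of the counts; all 8 genes matched their row's chromosome and strand. Python 3.11.15, numpy 2.4.6, scipy 1.17.1, pandas 2.3.3 and matplotlib 3.10.9 were used.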

Additional observations from a re-analysis of the deposited data

Results flagged for a closer look

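Among the 112 groups of 5 mice (8 genes in 14 types), 9 held 1 mouse that stood far from the others by Dixon's criterion at the 95% level, which compares the gap between that mouse and the nearest other with the range of all 5 and is set to mark about 1 in 20 groups by chance. S100a6 in NF_Pvalb was 293 CPM in mouse 4 and 15.3 to 44.2 CPM in the others, with 45.4% of its 471 UMIs in 1 of 24 cells. S100b in PEP3_Trpm8 was 316 CPM in mouse 5 and 21.0 to 92.8 CPM in the others, with 74.6% of its 512 UMIs in 3 of 60 cells. S100a11 in NF2_Ntrk2.Necab2 was 32.5 CPM in mouse 2 and 0 to 1.62 CPM in the others, with 25 of 30 UMIs in 1 of 6 cells. S100a11 in Th was 72.2 CPM in mouse 2 and 3.52 to 15.1 CPM in the others, with 59.9% of 324 UMIs in 3 of 58 cells.

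In PEP1_S100a11.Tagln2, mouse 3 (19 cells) was low for 2 genes, S100a1 with 23.1 CPM against 58.7 to 64.7 CPM and S100a13 with 266 CPM against 422 to 468 CPM. At low counts, S100a4 was 16.4 CPM in NF_Calb1 of mouse 4 (7.38 to 9.97 CPM in the others) and 11.6 CPM in Th of mouse 1 (2.88 to 5.21 CPM, 12 UMIs). S100a16 was listed at 0 in PEP1_Dcn of mouse 4 (28 cells) and at 3.24 to 3.91 CPM in the others.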

How the results depend on the processing

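Of 336 alternative values of the members' fold changes, 329 kept their direction and their side of the threshold. The replicate block changed none of the 32 member calls and no count of genes by over 1.5 times (3931 genes higher in neurons and 2589 higher in glia with it, 3944 and 2620 without). Without a minimum fold, S100a13 was called between neurons and glia, and S100a1 and S100a10 between NF and other neurons, so that 5 members were lower in NF. Counts of genes then rose to 3842 and 3799 (NF higher and lower) and to 3557 and 3158 (PEP higher and lower), from 1948, 1783, 1953 and 958. With no filter on low counts, 1951 and 1438 genes were called between glia and endothelial cells, in place of 901 and 869, over more genes tested. With equal weight of types, 1 member was called higher in NF, S100a16 being at 0.80, S100a1 was called lower (-1.02), and S100a13, not called, turned to -0.17 from 0.11. Without mouse 4, S100a11 in glia over endothelial cells was 0.89. TMM scaling moved S100a1 and S100a16 in glia to 565 and 570.4 CPM. The causes of these changes were not tested.

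With 3 to 16 endothelial cells per mouse and means under 5 CPM for S100a11 and S100a16 in several neuron types, small differences among low types were not detectable at this depth. Of 16 shares recomputed without thinning or at 5000 UMIs, 10 moved, so shares hold at the stated depth only. No doublet caller was run, and free RNA was measured by yardstick genes only.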
